A study of Mus musculus with 34 samples.

Results

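Gene expression in adipose tissue of mice on a high-fat, high-calorie diet (HFCD) was set against that of mice on a control diet, across all genes. The comparison used 7 of the 34 libraries of the series, chosen by the diet in their labels: 4 of HFCD (replicates 1 to 4) and 3 of control (replicates 1, 3 and 5). All mice were C57BL/6J. Fat supplied 60% of calories in HFCD, against 10% in the control diet, and both were fed ad libitum. HFCD replicate 1 and control replicate 1 came from mice aged 21 months and the other 5 libraries from mice aged 20 months. Both groups carry the same time mark in their labels, 11 cycles and 4 days of refeeding, which is that of a further group, HFCD+FMD. That group ate HFCD interrupted by a fasting mimicking diet and, in later cycles, also by days of control diet. The 6 HFCD+FMD libraries entered the low-count filter, the scaling and the estimate of the spread between libraries, but not the contrast. The labels name neither the fat depot nor the sex of the mice. Further adipose libraries of the labels, 2 of HFCD and 2 of control, were not analysed here.

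White adipose tissue stores fatty acids as triglyceride in adipocytes and releases them by lipolysis. Adipocytes either take fatty acids up from the circulation or build them from glucose by de novo lipogenesis, a pathway that dietary fat is known to hold down. Around the adipocytes lie macrophages, other immune cells, fibroblasts, vessels and, on abdominal depots, a mesothelial covering, and all of these add RNA to a library of whole tissue. In such libraries more cells of a type and more RNA per cell cannot be told apart.

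The adipocyte markers Adipoq and Plin1 were abundant in all 7 libraries. Adipoq, the hormone adiponectin, had 2657, 2559, 2242 and 1996 CPM in the HFCD libraries, against 4261, 3466 and 2400.1 CPM in the control libraries (CPM, counts scaled to library size with TMM factors). Its values overlapped between the diets and did not pass the test (log2 fold change -0.51, adjusted p = 0.204). Other adipocyte genes fell, among them Plin1 and Pparg (log2 fold change -0.89 and -0.61, adjusted p = 0.00684 and 0.0388). Of 29 adipocyte identity genes 13 fell and 0 rose, a count that changed with the libraries and the scaling, as described below. No marker of mammary and skin epithelium was among the genes tested, and 2 of 12 markers of ovary and reproductive tract were tested. Of these 2 genes 1 fell and 0 rose. They summed to 1.87 to 3.94 CPM in HFCD and 6.29 to 12.5 CPM in control, without overlap. The skeletal muscle list summed to 19.9 to 64.5 CPM in HFCD and 17.5 to 56.2 CPM in control. The pancreas and liver list summed to 52.3 to 143 CPM in HFCD and 97.8 to 321 CPM in control. For lymph node stroma, with 3 genes tested, the sums were 1.09 to 5.4 CPM in HFCD and 8.04 to 40.7 CPM in control, without overlap. Its 1 fall was Cxcl13, described below, and the part of such tissue in other changes was not tested.

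The HFCD libraries held 23523322 to 36688935 counts and the control libraries 15604982 to 28495331. The make-up of the libraries differed by diet. Mitochondrially encoded genes took up 2.29, 2.17, 5.46 and 6.08% of the counts in the HFCD libraries, against 29.3, 17 and 12.6% in the control libraries. The 20 most abundant genes of each library took up 14.5 to 17.9% in HFCD and 29.8 to 46.7% in control. TMM scaling is meant to correct for such a difference, and its factors were 1.02 to 1.1 in HFCD and 0.662 to 0.896 in control. With TMM the median log2 fold change of all genes, HFCD over control, was -0.001. With scaling to total counts it was 0.444, so every change below is a change relative to the typical gene of the tissue.

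**Figure D1:**
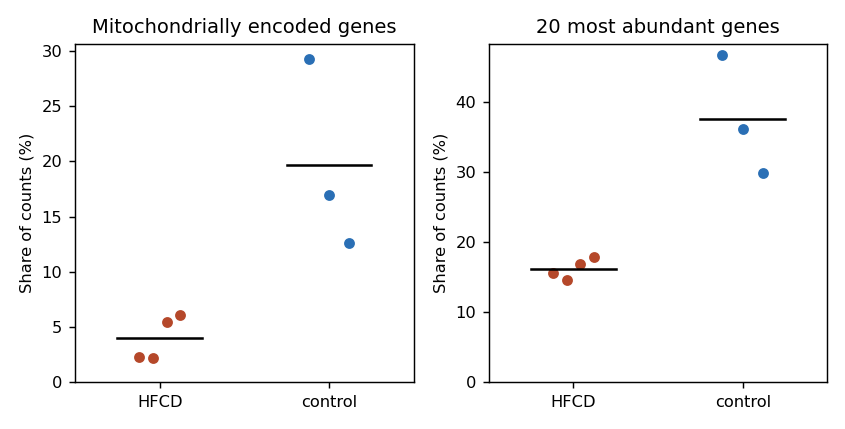
Share of counts per adipose library: the left panel shows mitochondrially encoded genes and the right panel the 20 most abundant genes, in percent of all counts, with each point 1 library and the bar the mean of the diet. HFCD libraries lie at 2.17 to 6.08% and control libraries at 12.6 to 29.3% for mitochondrially encoded genes, and the groups overlap in neither panel.

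Of 15112 genes tested, 4532 passed an adjusted p of 0.05 in edgeR's quasi-likelihood test (30.0%). Of these, 2379 were higher in HFCD (15.7% of genes tested) and 2153 lower (14.2%). With total-count scaling the split was 6205 higher and 672 lower. Changes of more than 2-fold were seen for 1277 genes that rose (8.45%) and 883 that fell (5.84%), and changes of more than 16-fold for 55 and 37. The count dropped most without control replicate 1 or 3: it was 2348 without control replicate 1 and 2991 without control replicate 3. It was 4614 without control replicate 5 and 3289 to 3819 without 1 of the HFCD libraries. In all 7 fits that left out 1 library, the same 1982 genes passed (13.1%), 1119 of them higher in HFCD (7.40%) and 863 lower (5.71%). Such genes are called stable below, and where several libraries follow the word without, each was left out in turn. The gene groups that follow are described by how many of their measured members rose or fell, and these shares over all genes are the background for each count.

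**Figure D2:**
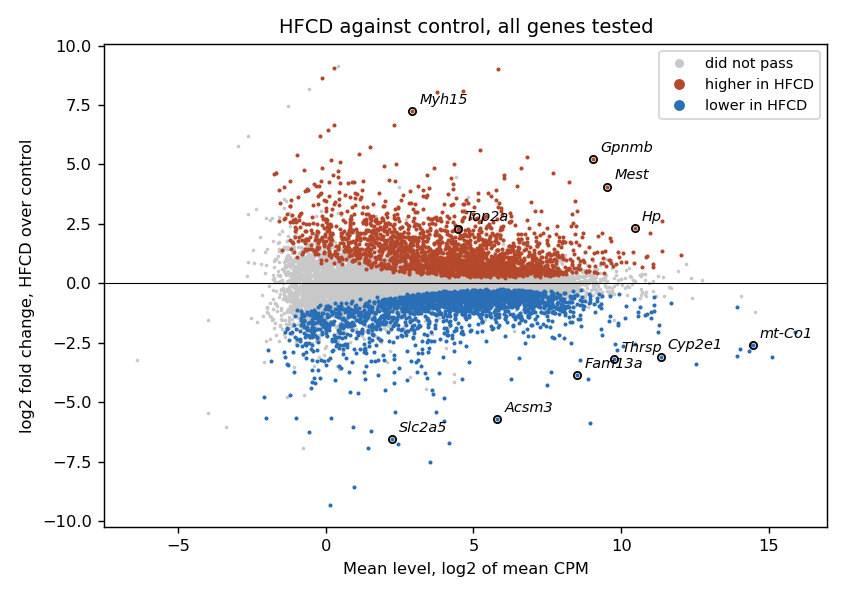
Change of every gene tested against its level: the horizontal axis is the log2 of the mean CPM over the HFCD and control libraries, the vertical axis the log2 fold change, HFCD over control, and each point 1 gene. Genes that passed are coloured, 2379 above 0 and 2153 below, and labelled genes are described in the text.

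**Figure D3:**
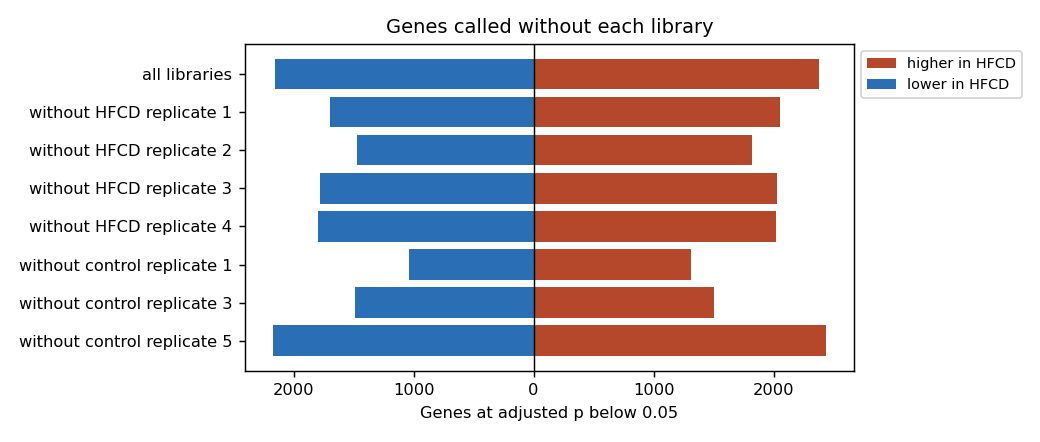
Number of genes higher (right of 0) and lower (left of 0) in HFCD at an adjusted p of 0.05, with all libraries and in each fit without 1 library. The total is 4532 with all libraries, 2348 without control replicate 1 and 4614 without control replicate 5.

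Most genes of the machinery that builds fatty acids were lower under HFCD. Of 19 genes of fatty acid synthesis tested, 16 fell and 1 rose, and 13 of the falls were stable, with a median log2 fold change of -1.81 (SE and all adjusted p below from the same edgeR test). Thrsp, a small nuclear protein that follows the lipogenic state, had 198, 152, 234 and 199.8 CPM in the HFCD libraries, against 2240.2, 1954 and 1131 CPM in the control libraries. All 4 HFCD libraries lay far below the lowest control library, replicate 5 (log2 fold change -3.18 with an SE of 0.48, adjusted p = 0.00128). Acss2, which activates acetate to acetyl-CoA, had 79.2, 87.1, 100.1 and 71.5 CPM in the HFCD libraries, against 713, 1096 and 574 CPM in the control libraries (log2 fold change -3.23 with an SE of 0.51, adjusted p = 0.00157). Acly, which splits citrate to acetyl-CoA in the cytosol, had 281, 284, 275 and 209 CPM in the HFCD libraries, against 1383, 2731 and 1344 CPM in the control libraries (log2 fold change -2.79 with an SE of 0.57, adjusted p = 0.00472). For both, control replicate 3 was the highest library and no HFCD library reached the control range. Slc25a1, which carries the citrate out of the mitochondrion, fell as well (log2 fold change -1.81, adjusted p = 0.00472), as did the carboxylase Acacb (log2 fold change -2.22, adjusted p = 0.00777) and Aacs, which activates acetoacetate for lipid synthesis (log2 fold change -1.65, adjusted p = 0.0102). Mlxipl, the carbohydrate-sensing transcription factor ChREBP, had 38.7, 44.5, 67 and 71.4 CPM in the HFCD libraries, against 216, 147 and 113 CPM in the control libraries (log2 fold change -1.52 with an SE of 0.36, adjusted p = 0.00928). Srebf2, a transcription factor that drives sterol synthesis, was the member that rose (log2 fold change 0.51, adjusted p = 0.039). Srebf2 did not pass without HFCD replicates 2, 3 and 4 or control replicates 1 and 3 (log2 fold change 0.53, 0.41, 0.54, 0.42 and 0.45, adjusted p = 0.0639, 0.0984, 0.0519, 0.146 and 0.126, in that order).

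The promoters of Fasn, the fatty acid synthase, and Thrsp are shown because both genes are classical lipogenic genes and both windows hold the CCAAT box, the binding sequence of the factor NF-Y. Each window holds 300 bases around the annotated start, from RefSeq on GRCm38.p6, and capitals mark CCAAT or its reverse complement ATTGG. Fasn lies at chr11:120824498-120824797, minus strand and holds 3 matches, a pair of which overlap on opposite strands, and Thrsp lies at chr7:97417501-97417800, minus strand and holds 2.
Fasn: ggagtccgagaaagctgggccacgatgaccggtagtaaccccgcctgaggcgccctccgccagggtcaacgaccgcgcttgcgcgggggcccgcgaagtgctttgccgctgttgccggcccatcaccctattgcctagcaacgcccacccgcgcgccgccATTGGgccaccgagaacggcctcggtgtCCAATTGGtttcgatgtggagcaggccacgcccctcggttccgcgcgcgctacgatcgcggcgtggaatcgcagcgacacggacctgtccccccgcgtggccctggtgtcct
Thrsp: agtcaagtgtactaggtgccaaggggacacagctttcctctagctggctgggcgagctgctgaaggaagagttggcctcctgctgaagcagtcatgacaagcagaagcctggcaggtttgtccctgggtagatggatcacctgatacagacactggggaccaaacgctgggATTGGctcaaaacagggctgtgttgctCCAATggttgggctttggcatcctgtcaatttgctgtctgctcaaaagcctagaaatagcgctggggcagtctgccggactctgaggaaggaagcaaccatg
The letters CCAAT stood on either strand of 10 of the 17 promoters matched by symbol for this list, and in 38.4% of the 11427 matched promoters of the genes tested. CACGTG, the E-box core, stood in 3 of them, against 9.99% of the promoters of the genes tested. A match of letters is a description and not a site of binding.

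Enzymes that lengthen and desaturate fatty acids and those that supply NADPH moved with fatty acid synthesis. Of 18 desaturation and elongation genes, a list that shares Elovl6, Elovl5, Scd1 and Scd2 with the list above, 12 fell and 0 rose (8 stable; median -1.28). With total-count scaling 2 rose and 8 fell. Fads1, the delta-5 desaturase of polyunsaturated fatty acids, had 67.6, 58.5, 78.7 and 74.8 CPM in the HFCD libraries, against 187, 168 and 168 CPM in the control libraries. Its libraries were tight within each diet, and it was among the 10 stable falls with the smallest p (log2 fold change -1.32 with an SE of 0.13, adjusted p = 0.00025). Fads2, the delta-6 desaturase, had 8.49, 7.06, 14.8 and 16.1 CPM in the HFCD libraries, against 33.7, 44.2 and 31.9 CPM in the control libraries (log2 fold change -1.66 with an SE of 0.29, adjusted p = 0.00221). Tecr, which completes each round of elongation, fell too (log2 fold change -1.51, adjusted p = 0.00326). Tkt, the transketolase of the pentose phosphate pathway, had 327, 331, 355 and 307 CPM in the HFCD libraries, against 2118, 2390.2 and 1579 CPM in the control libraries. The 4 HFCD libraries spanned a narrow band below all control libraries (log2 fold change -2.62 with an SE of 0.37, adjusted p = 0.00099). G6pdx, which makes NADPH in the first step of that pathway, fell less (log2 fold change -0.85, adjusted p = 0.00302), and of the 10 genes of this group 6 fell and 0 rose. That number was 3 without HFCD replicates 3 and 4 or control replicate 1. With total-count scaling 1 rose and 2 fell.

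Genes of triglyceride assembly and sterol synthesis changed less evenly. Of 19 genes of triglyceride assembly, 9 fell and 1 rose. Falls numbered 5 without HFCD replicates 2 and 3, 4 without HFCD replicate 4 or control replicate 3 and 3 without control replicate 1. With total-count scaling 5 rose and 3 fell. The stable falls were Mogat1, which acylates monoacylglycerol, the phosphatidate phosphatase Lpin1 and the acyltransferase Gpat4. Mogat1 had 3.28, 2.0, 2.48 and 2.29 CPM in the HFCD libraries, against 33.6, 14.5 and 8.91 CPM in the control libraries, with control replicate 1 the highest (log2 fold change -2.91 with an SE of 0.64, adjusted p = 0.00655). Mogat1 had a log2 fold change of -2.21 without control replicate 1 (adjusted p = 0.0386). Lpin1 fell by 0.96 and Gpat4 by 0.82 on the log2 scale (adjusted p = 0.0076 and 0.00198), while Lpin2, a paralogue of Lpin1, rose (log2 fold change 0.79, adjusted p = 0.0113). Dgat2, which adds the last acyl chain, did not pass (log2 fold change 0.37, adjusted p = 0.4). Of 23 genes of cholesterol synthesis and uptake, 9 fell and 4 rose. The falls were enzymes of the pathway, among them Fdft1, the squalene synthase, with 26.1, 20.9, 37.5 and 29.8 CPM in the HFCD libraries, against 107, 98.5 and 56.6 CPM in the control libraries (log2 fold change -1.61 with an SE of 0.3, adjusted p = 0.00311), and Acat2, with 26.5, 29.5, 20.0 and 19.5 CPM in the HFCD libraries, against 99.8, 89 and 56.4 CPM in the control libraries (log2 fold change -1.77 with an SE of 0.23, adjusted p = 0.000564). Among the 4 rises were Stard4, a sterol carrier, and Hmgcs1, an enzyme at the entry of the pathway. Stard4 had 17.2, 16.4, 14 and 11.6 CPM in the HFCD libraries, against 7.07, 6.85 and 8.31 CPM in the control libraries (log2 fold change 1.0 with an SE of 0.18, adjusted p = 0.0025). Members that rose numbered 2 without HFCD replicates 1 and 2 or control replicate 5 and 1 without control replicate 3. With total-count scaling 5 rose and 6 fell. Hmgcs1 did not pass without HFCD replicates 1, 2, 3 and 4 or control replicates 3 and 5 (log2 fold change 0.69, 0.63, 0.72, 0.77, 0.72 and 0.46, adjusted p = 0.0812, 0.105, 0.0675, 0.0512, 0.102 and 0.146, in that order).

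Genes for holding and releasing fat moved in both directions. Of 17 genes of lipolysis and its receptors, 7 fell and 2 rose. Members that fell numbered 4 without control replicate 1. With total-count scaling 4 rose and 4 fell and the median changed sign, to 0.02. Hcar1, the lactate receptor through which lipolysis is restrained, had 92.6, 44.4, 76.2 and 59.3 CPM in the HFCD libraries, against 246, 178 and 109 CPM in the control libraries (log2 fold change -1.38 with an SE of 0.3, adjusted p = 0.00627). Pde3b, the phosphodiesterase through which insulin restrains lipolysis, had 283, 248, 197 and 202 CPM in the HFCD libraries, against 686, 648 and 432 CPM in the control libraries (log2 fold change -1.34 with an SE of 0.18, adjusted p = 0.000687). The 2 rises were Adcy3, an adenylate cyclase, with 79.3, 82.6, 52.9 and 77.4 CPM in the HFCD libraries, against 31.5, 21 and 20.4 CPM in the control libraries (log2 fold change 1.6 with an SE of 0.4, adjusted p = 0.0113), and the adrenergic receptor Adrb1, with 3.2, 5.11, 2.91 and 3.45 CPM in the HFCD libraries, against 2.23, 1.38 and 1.44 CPM in the control libraries (log2 fold change 1.15 with an SE of 0.28, adjusted p = 0.00954). Each of these genes was without overlap between the diets. Plin1, the perilipin that coats the large droplet, had 1629.9, 1389, 1753 and 1752 CPM in the HFCD libraries, against 2986, 3313 and 2773 CPM in the control libraries (log2 fold change -0.89 with an SE of 0.2, adjusted p = 0.00684). Hilpda, an inhibitor of the lipase ATGL, rose (log2 fold change 1.87, adjusted p = 0.0157). Hilpda did not pass without control replicate 3 (log2 fold change 1.61, adjusted p = 0.0682). Of 18 genes of lipid uptake and activation, 3 rose and 2 fell, shares of 16.7% and 11.1% against 15.7% and 14.2% of all genes tested. With total-count scaling 5 rose and 0 fell. The rises, all stable, were the receptors Vldlr (log2 fold change 0.74, adjusted p = 0.00619) and Lrp1 (log2 fold change 0.97, adjusted p = 0.00318) and the acyl-CoA synthetase Acsl5 (log2 fold change 0.83, adjusted p = 0.00429). The falls, neither of them stable, were the fatty acid binding protein Fabp4 (log2 fold change -1.0, adjusted p = 0.0169) and the acyl-CoA synthetase Acsl1 (log2 fold change -0.81, adjusted p = 0.0186). Fabp4 did not pass without control replicate 1 (log2 fold change -0.72, adjusted p = 0.0957). Acsl1 did not pass without control replicates 1 and 3 (log2 fold change -0.56 and -0.77, adjusted p = 0.108 and 0.06, in that order). The fatty acid carrier Cd36 (log2 fold change 0.25, adjusted p = 0.423) did not pass. Pltp, which moves phospholipid between lipoproteins, had 473, 580.1, 624 and 734 CPM in the HFCD libraries, against 116, 127 and 219 CPM in the control libraries (log2 fold change 1.97 with an SE of 0.45, adjusted p = 0.00777), and Abcg1, which exports cholesterol, had 123, 167, 126 and 168 CPM in the HFCD libraries, against 40.1, 51.6 and 41.6 CPM in the control libraries (log2 fold change 1.71 with an SE of 0.33, adjusted p = 0.00344). In both, the highest control library stayed below the lowest HFCD library.

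Genes of glycogen and of the entry of pyruvate into mitochondria fell more often than they rose under HFCD. Of 16 glycogen genes 7 fell and 1 rose. Falls counted 4 without control replicates 1 and 3. With total-count scaling 2 rose and 3 fell. Pygl, a glycogen phosphorylase, had 119.9, 78.8, 96.3 and 85.5 CPM in the HFCD libraries, against 446, 516 and 333 CPM in the control libraries (log2 fold change -2.18 with an SE of 0.34, adjusted p = 0.00157), and Gbe1, the branching enzyme, had 59.4, 49.2, 51.1 and 48.9 CPM in the HFCD libraries, against 191, 244 and 149 CPM in the control libraries (log2 fold change -1.9 with an SE of 0.33, adjusted p = 0.00221). Of 32 genes of pyruvate entry and the tricarboxylic acid cycle, 21 fell and 1 rose (14 falls stable; median -0.82). With total-count scaling 2 rose and 12 fell. Pdhb, a subunit of pyruvate dehydrogenase, had 80.4, 75.6, 67.5 and 71.6 CPM in the HFCD libraries, against 368, 256 and 156 CPM in the control libraries. HFCD libraries agreed closely, while control libraries ranged over more than 2-fold with replicate 1 the highest (log2 fold change -1.82 with an SE of 0.28, adjusted p = 0.00128). Pdk2, a kinase that switches this enzyme off, had 70.6, 70.6, 96.9 and 98.1 CPM in the HFCD libraries, against 374, 224 and 215 CPM in the control libraries (log2 fold change -1.69 with an SE of 0.2, adjusted p = 0.000462). Pcx, which makes oxaloacetate from pyruvate, fell (log2 fold change -1.47, adjusted p = 0.00973). The member that rose was Idh2, the mitochondrial NADP-dependent isocitrate dehydrogenase, with 119, 122, 100.4 and 109 CPM in the HFCD libraries, against 75.8, 71.7 and 66.7 CPM in the control libraries (log2 fold change 0.66 with an SE of 0.15, adjusted p = 0.00869). In glycolysis 6 of 27 genes fell and 3 rose, among them Hk3, a hexokinase of myeloid cells, with 31.5, 56, 35.2 and 41.2 CPM in the HFCD libraries, against 3.58, 3.33 and 7.59 CPM in the control libraries (log2 fold change 3.06 with an SE of 0.62, adjusted p = 0.00461), and the regulatory enzyme Pfkfb4, with 35.8, 44.2, 27.9 and 30.2 CPM in the HFCD libraries, against 6.2, 8.85 and 5.51 CPM in the control libraries (log2 fold change 2.33 with an SE of 0.31, adjusted p = 0.000674). In the breakdown of branched-chain amino acids 11 of 24 genes fell and 1 rose, and Bckdhb, a subunit of its controlling enzyme, had 40.6, 37.9, 33.1 and 34.1 CPM in the HFCD libraries, against 128, 73.4 and 64.6 CPM in the control libraries (log2 fold change -1.28 with an SE of 0.22, adjusted p = 0.00217). The falls were 5 without control replicate 1 and 7 without control replicate 3. With total-count scaling 2 rose and 4 fell.

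Genes of the respiratory chain fell more often than they rose, mitochondrially encoded and nuclear ones alike. Of 14 mitochondrially encoded genes 12 fell (11 stable; median -2.67). mt-Co1, a subunit of complex IV, had 4350.2, 4265, 9196 and 10124 CPM in the HFCD libraries, against 71807, 32932 and 22939.8 CPM in the control libraries. Within HFCD replicates 3 and 4 were about 2-fold above replicates 1 and 2, and within control replicate 1 was the highest, but the groups did not overlap (log2 fold change -2.61 with an SE of 0.48, adjusted p = 0.00297). mt-Co1 had a log2 fold change of -2.0 without control replicate 1 (adjusted p = 0.017). Of 36 nuclear genes of complex I 27 fell and 0 rose (14 falls stable; median -0.69). This count was 14 without control replicate 1. With total-count scaling 0 rose and 12 fell. Ndufs6 had 24, 22.7, 31 and 34.8 CPM in the HFCD libraries, against 99.4, 64.1 and 55.4 CPM in the control libraries (log2 fold change -1.37 with an SE of 0.22, adjusted p = 0.00162). Of 37 nuclear genes of complexes III to V 22 fell and 0 rose. That number was 11 without control replicate 1. With total-count scaling 0 rose and 9 fell. Cox6c, of complex IV, had 68.8, 67.4, 60.3 and 75 CPM in the HFCD libraries, against 247, 156 and 132 CPM in the control libraries (log2 fold change -1.39 with an SE of 0.22, adjusted p = 0.00152). Of 77 genes of the mitochondrial ribosome 38 fell and 0 rose, with a median of -0.43. Falls numbered 19 without control replicate 1. With total-count scaling 3 rose and 8 fell and the median changed sign, to 0.05. Cpt1a, which admits fatty acids to mitochondrial oxidation, went the other way, with 201, 251, 188 and 219 CPM in the HFCD libraries, against 52.5, 82 and 119 CPM in the control libraries (log2 fold change 1.34 with an SE of 0.31, adjusted p = 0.00792). Of the 18 oxidation genes listed 2 fell and 1 rose (11.1% and 5.56%, against 14.2% and 15.7% of all genes tested). Members that fell numbered 1 without control replicate 1 and 4 without control replicate 5. With total-count scaling 2 rose and 0 fell and the median changed sign, to 0.2. Macrophage markers rose while genes of the respiratory chain fell, summing to 3686 to 7841 CPM in HFCD and 728 to 2707 CPM in control over 22 genes. The part of these markers in the falls was not tested. Control replicate 1, the highest library for mt-Co1, Ndufs6 and Cox6c, was also the highest for Ucp1.

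Some genes of brown and beige fat were highest in control replicate 1. Ucp1, the uncoupling protein of brown and beige adipocytes, had 0.273, 8.95, 0.0709 and 0.208 CPM in the HFCD libraries, against 130.3, 0.533 and 0.0799 CPM in the control libraries. Its level was high in 1 control library, intermediate in HFCD replicate 2 and near 0 in the other 5 libraries (log2 fold change -4.15 with an SE of 1.91, adjusted p = 0.117). Leaving out control replicate 1 turned the log2 fold change to 2.99, and leaving out HFCD replicate 2 gave -7.79 (adjusted p = 0.346 and 0.0403). Cidea, a lipid droplet protein of brown fat, had 1.64, 2.78, 0.709 and 1.04 CPM in the HFCD libraries, against 60.3, 4.0 and 1.16 CPM in the control libraries (log2 fold change -3.79 with an SE of 1.07, adjusted p = 0.0191). Cidea did not pass without control replicate 1 (log2 fold change -0.72, adjusted p = 0.536). Dio2, the deiodinase that activates thyroid hormone, had 0.571, 0.973, 1.06 and 0.457 CPM in the HFCD libraries, against 26.7, 2.67 and 2.04 CPM in the control libraries (log2 fold change -3.74 with an SE of 0.86, adjusted p = 0.00774). Dio2 did not pass without control replicate 1 (log2 fold change -1.6, adjusted p = 0.0925). Thermogenic genes as a list did not stand apart in their summed level, which was 776 to 1263 CPM in HFCD and 673 to 896 CPM in control. Of 22 thermogenic genes 6 fell and 3 rose. Members that fell numbered 2 without control replicate 1 and 2 by voom. With total-count scaling 7 rose and 2 fell. The stable fall was Letmd1, a mitochondrial inner membrane protein (log2 fold change -0.75, adjusted p = 0.00815), and the stable rise Ckb, the brain-type creatine kinase, with 35.4, 42.6, 37 and 40.5 CPM in the HFCD libraries, against 18.7, 19.4 and 16.7 CPM in the control libraries (log2 fold change 1.09 with an SE of 0.21, adjusted p = 0.0036).

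Mest, Peg3, Trp53inp2 and Fam13a separated the diets without overlap. Mest, an imprinted gene known to rise as adipocytes enlarge, had 1092, 1481, 1029.6 and 1341 CPM in the HFCD libraries, against 30.6, 67.4 and 123 CPM in the control libraries. The lowest HFCD library was far above the highest control library (log2 fold change 4.07 with an SE of 0.38, adjusted p = 0.00025; ENSMUSG00000051855, chromosome 6, 30723547 to 30748465 on GRCm38). Mest had a log2 fold change of 4.66 without control replicate 5 (adjusted p = 0.000122). Peg3, another imprinted gene, had 278, 315, 222 and 274 CPM in the HFCD libraries, against 71.6, 37.3 and 51.8 CPM in the control libraries (log2 fold change 2.35 with an SE of 0.27, adjusted p = 0.000402). Trp53inp2, which acts in autophagy and adipocyte differentiation, had 886, 1589, 1113 and 1076 CPM in the HFCD libraries, against 342, 325 and 360.5 CPM in the control libraries (log2 fold change 1.77 with an SE of 0.2, adjusted p = 0.000402). Fam13a, known from human association studies of fat distribution, had 58.5, 54, 57.7 and 46.2 CPM in the HFCD libraries, against 1041, 789 and 505 CPM in the control libraries (log2 fold change -3.85 with an SE of 0.38, adjusted p = 0.00027; ENSMUSG00000037709, chromosome 6, 58932090 to 59024549). Of 25 adipokines 6 rose and 6 fell. Falls counted 2 without control replicate 1. With total-count scaling 11 rose and 3 fell. Rarres2, which encodes chemerin, had 330.0, 335, 270.0 and 265 CPM in the HFCD libraries, against 67.4, 171 and 161 CPM in the control libraries (log2 fold change 1.17 with an SE of 0.26, adjusted p = 0.00655). Rbp4, the retinol carrier, had 239, 217, 278 and 328 CPM in the HFCD libraries, against 1469.9, 1175 and 896 CPM in the control libraries (log2 fold change -2.15 with an SE of 0.53, adjusted p = 0.0106). Among 29 adipocyte identity genes 13 fell and 0 rose. The falls were 5 without control replicate 1 and 8 without control replicate 3. With total-count scaling 5 rose and 5 fell. Pparg, the master regulator of the adipocyte, had 214, 181, 198 and 192 CPM in the HFCD libraries, against 388, 306 and 206 CPM in the control libraries, a difference that overlapped between the diets (log2 fold change -0.61 with an SE of 0.2, adjusted p = 0.0388). Pparg did not pass without HFCD replicates 1, 2, 3 and 4 or control replicates 1 and 3 (log2 fold change -0.66, -0.58, -0.62, -0.6, -0.38 and -0.6, adjusted p = 0.0531, 0.09, 0.0683, 0.072, 0.21 and 0.0914, in that order).

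Signalling genes of the adipocyte fell more often than they rose with TMM scaling, but not with total-count scaling. Of 28 insulin signalling genes 11 fell and 4 rose. This count was 5 without control replicate 1 and 4 without control replicate 3. With total-count scaling 10 rose and 4 fell and the median changed sign, to 0.27. Foxo1, a transcription factor that insulin switches off, had 151, 154, 166 and 178 CPM in the HFCD libraries, against 371, 359 and 335 CPM in the control libraries. The libraries within each diet were close to each other (log2 fold change -1.13 with an SE of 0.22, adjusted p = 0.00396). Irs1, the first adaptor below the insulin receptor, had 59.7, 22.5, 37.7 and 29.9 CPM in the HFCD libraries, against 159.7, 95.3 and 87.4 CPM in the control libraries (log2 fold change -1.6 with an SE of 0.42, adjusted p = 0.0145). Irs1 did not pass without control replicate 1 (log2 fold change -1.28, adjusted p = 0.0758). Ptpn1, a phosphatase that dampens the insulin receptor, rose (log2 fold change 0.8, adjusted p = 0.00345). Prlr, the prolactin receptor, had 20.9, 11, 18.2 and 18.7 CPM in the HFCD libraries, against 80.5, 70.8 and 55.1 CPM in the control libraries (log2 fold change -2.0 with an SE of 0.26, adjusted p = 0.000564). Among 27 nuclear receptors 3 rose and 6 fell (11.1% and 22.2%, against 15.7% and 14.2% of all genes tested). The falls were 3 without HFCD replicates 2 and 4 or control replicates 1 and 3. With total-count scaling 8 rose and 1 fell and the median changed sign, to 0.32. Rora, a retinoid-related orphan receptor, was among the stable falls, with 69.6, 81.1, 60.7 and 63.6 CPM in the HFCD libraries, against 103, 132 and 99.1 CPM in the control libraries (log2 fold change -0.7 with an SE of 0.17, adjusted p = 0.0087). Net1, an exchange factor of small GTPases, had 160.3, 137, 112 and 141 CPM in the HFCD libraries, against 477, 404 and 464 CPM in the control libraries (log2 fold change -1.71 with an SE of 0.19, adjusted p = 0.000402), and Bcar3, an adaptor in Src and integrin signalling, had 218, 189, 189 and 203 CPM in the HFCD libraries, against 55.5, 64.6 and 53.1 CPM in the control libraries (log2 fold change 1.79 with an SE of 0.16, adjusted p = 0.00025). These 2 genes were among the 10 with the smallest p in their direction.

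**Figure D4:**
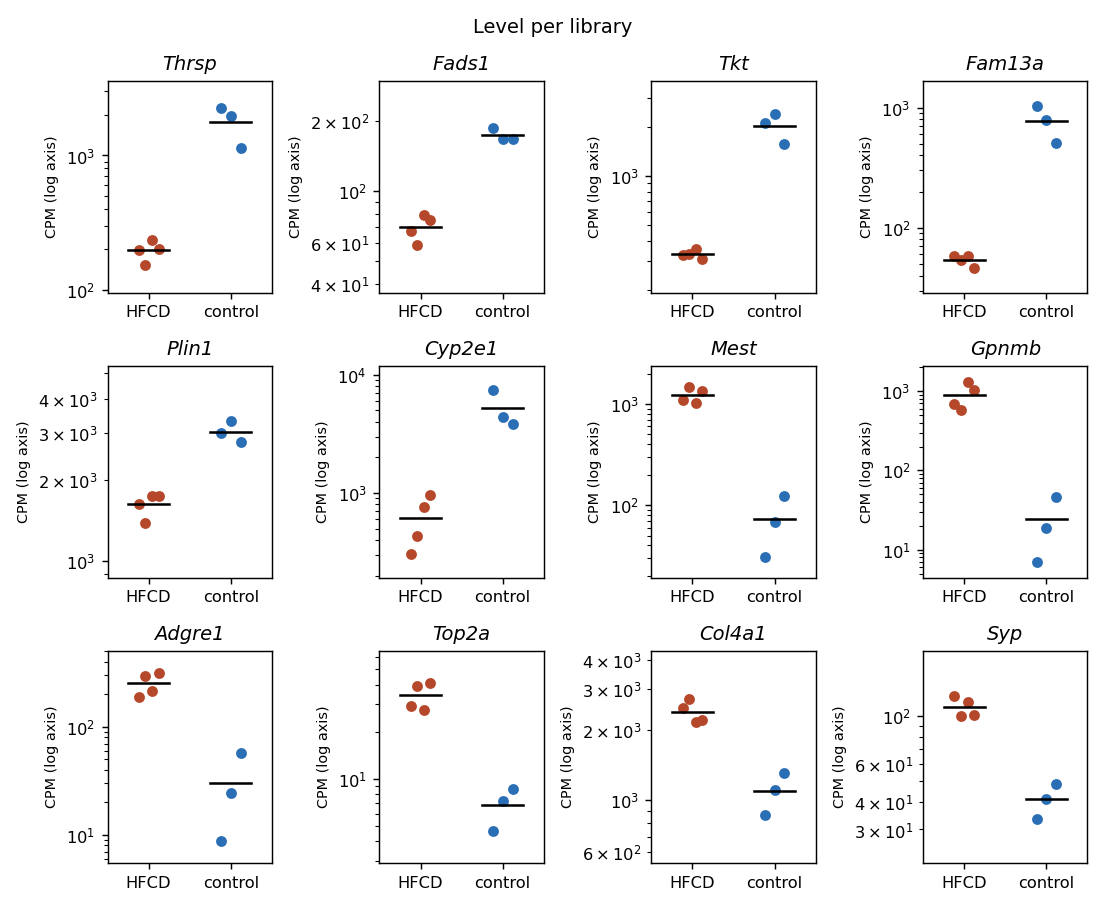
CPM per library of 12 genes described in the text, on a log axis: HFCD libraries on the left of each panel, control libraries on the right, each point 1 library and the bar the mean of the diet. The groups do not overlap in any of the 12 panels.

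Macrophage genes rose, most of them several-fold. Of 22 general macrophage genes 18 rose and 0 fell (8 stable; median 1.73). Rises numbered 9 without control replicates 1 and 3. Adgre1, the macrophage surface protein F4/80, had 188, 297, 213 and 313 CPM in the HFCD libraries, against 8.81, 24.6 and 57.4 CPM in the control libraries. Control libraries spread over more than 6-fold, and the highest of them, replicate 5, was still below every HFCD library (log2 fold change 3.05 with an SE of 0.72, adjusted p = 0.0089). Adgre1 had a log2 fold change of 3.9 without control replicate 5 (adjusted p = 0.00573). Of 23 genes of lipid-associated macrophages 17 rose and 0 fell (9 stable, median 2.07). Their summed level overlapped between the diets, at 19161 to 26338 CPM in HFCD and 18983 to 29611 CPM in control. Such a sum follows its most abundant members and not the typical one. In control the 22 general macrophage genes summed to 728 to 2707 CPM, far below it. Members that rose numbered 10 without control replicate 1 and 11 without control replicate 3. Gpnmb, a glycoprotein of lipid-laden macrophages, had 696, 584, 1293 and 1035 CPM in the HFCD libraries, against 7.07, 18.7 and 46.5 CPM in the control libraries (log2 fold change 5.21 with an SE of 1.24, adjusted p = 0.00901; ENSMUSG00000029816, chromosome 6, 49036546 to 49070929). Gpnmb had a log2 fold change of 6.11 without control replicate 5 (adjusted p = 0.0122). Slc37a2, a sugar phosphate transporter of macrophages, had 86.5, 116, 103 and 144 CPM in the HFCD libraries, against 1.65, 3.42 and 9.79 CPM in the control libraries (log2 fold change 4.43 with an SE of 0.93, adjusted p = 0.00523). Slc37a2 had a log2 fold change of 5.39 without control replicate 5 (adjusted p = 0.00583). Dcstamp, which macrophages need to fuse into multinucleated cells, had 2.66, 3.11, 3.62 and 3.7 CPM in the HFCD libraries, against 0, 0.222 and 0.48 CPM in the control libraries (log2 fold change 3.58 with an SE of 0.86, adjusted p = 0.00942), and Tm4sf19 had 7.2, 9.92, 9.08 and 8.77 CPM in the HFCD libraries, against 0, 0 and 0.20 CPM in the control libraries (log2 fold change 6.64 with an SE of 1.62, adjusted p = 0.00999). Dcstamp had a log2 fold change of 4.5 without control replicate 5 (adjusted p = 0.0118). Tm4sf19 had a log2 fold change of 5.99 without control replicate 3 (adjusted p = 0.0433). Without control replicate 5, Tm4sf19 had 0 reads in the control group and still passed, and no fold change is given (adjusted p = 0.0234). By contrast, of 17 genes of resident macrophages 2 rose and 1 fell (11.8% and 5.88%, against 15.7% and 14.2% of all genes tested). Members that rose numbered 1 without control replicates 1 and 3, 7 without control replicate 5, 5 by DESeq2, 6 by voom with quality weights and 5 with age as a covariate. With total-count scaling 4 rose and 1 fell. Timd4, a receptor of long-lived resident macrophages, had 2.38, 1.58, 3.26 and 2.24 CPM in the HFCD libraries, against 2.23, 7.42 and 22.2 CPM in the control libraries (log2 fold change -2.18 with an SE of 0.68, adjusted p = 0.0293). Timd4 did not pass without HFCD replicates 1, 2 and 4 or control replicate 5 (log2 fold change -2.19, -2.03, -2.16 and -1.05, adjusted p = 0.0594, 0.0757, 0.0599 and 0.229, in that order). Stab1, a scavenger receptor, rose (log2 fold change 1.69, adjusted p = 0.00549).

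Lysosomal genes rose alongside. Of 34 genes of lysosomal enzymes and membrane 19 rose and 0 fell (10 stable). Rises counted 12 without control replicate 1. With total-count scaling 29 rose and 0 fell. Man2b1, a mannosidase, had 294, 363, 305 and 357 CPM in the HFCD libraries, against 79, 109 and 136 CPM in the control libraries (log2 fold change 1.61 with an SE of 0.24, adjusted p = 0.00128). Gusb, a glucuronidase, had 189, 229, 172 and 201 CPM in the HFCD libraries, against 51.3, 61.8 and 79.6 CPM in the control libraries (log2 fold change 1.62 with an SE of 0.34, adjusted p = 0.00534). Tfeb, the transcription factor of lysosomal genes, had 16.1, 19.3, 20.5 and 16.6 CPM in the HFCD libraries, against 6.68, 6.31 and 7.67 CPM in the control libraries (log2 fold change 1.4 with an SE of 0.22, adjusted p = 0.00147). In all 3 genes the HFCD libraries lay above the control libraries. In the proton pump that acidifies the lysosome 5 of 20 genes rose, led by Atp6v0d2 and Tcirg1, isoforms known from osteoclasts and macrophages, and 1 fell. The rises were 3 without HFCD replicates 1, 2 and 4 or control replicates 1, 3 and 5 and 3 with age as a covariate. With total-count scaling 14 rose and 0 fell. Tcirg1 had 56, 79.6, 81.9 and 88.2 CPM in the HFCD libraries, against 20.9, 14.5 and 20.6 CPM in the control libraries (log2 fold change 2.04 with an SE of 0.41, adjusted p = 0.00472). The promoter of Glb1 is shown because it is a stable member whose window holds CACGTG, the core of the sequence that TFEB is known to bind (capitals; chr9:114400828-114401127, plus strand, same source and window as above).
Glb1: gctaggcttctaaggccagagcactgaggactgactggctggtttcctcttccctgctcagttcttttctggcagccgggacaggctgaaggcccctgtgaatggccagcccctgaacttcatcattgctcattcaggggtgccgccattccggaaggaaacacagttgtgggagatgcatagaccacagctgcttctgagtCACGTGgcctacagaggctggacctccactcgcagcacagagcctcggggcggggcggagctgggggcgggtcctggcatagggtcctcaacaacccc
CACGTG stood in 8 of 28 matched promoters of the lysosomal list and in 9.99% of those of the genes tested.

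Genes of antigen presentation through class II molecules rose. Of 16 class II genes 11 rose and 0 fell (7 stable; median 1.38). This count was 7 without control replicate 1. Ciita, the activator of all class II genes, had 18.3, 33.6, 20.6 and 24.3 CPM in the HFCD libraries, against 2.52, 6.67 and 5.91 CPM in the control libraries (log2 fold change 2.23 with an SE of 0.4, adjusted p = 0.00266), and the costimulator Cd40 had 3.77, 4.86, 3.65 and 5.61 CPM in the HFCD libraries, against 0.484, 0.356 and 1.52 CPM in the control libraries (log2 fold change 2.44 with an SE of 0.48, adjusted p = 0.00391). Cd40 had a log2 fold change of 3.45 without control replicate 5 (adjusted p = 0.000961). Of 17 class I genes 4 rose, a count that changed with the test. That number was 2 without HFCD replicate 2 or control replicates 3 and 5, 8 without HFCD replicate 3, 8 by DESeq2, 10 by voom with quality weights and 2 with the HFCD and control libraries fitted alone. With total-count scaling 14 rose and 0 fell. Reads of the classical class I genes can be shared between near-identical copies, so their values are uncertain. Of 35 interferon response genes 4 rose and 1 fell, shares of 11.4% and 2.86%, both below the 15.7% and 14.2% of all genes tested. Rises numbered 2 without control replicate 3 and 8 by DESeq2. With total-count scaling 13 rose and 0 fell. Irf8, a transcription factor of macrophages and dendritic cells, was one of the rises, with 43.9, 59.6, 54.3 and 74.4 CPM in the HFCD libraries, against 8.42, 11.5 and 17.4 CPM in the control libraries (log2 fold change 2.21 with an SE of 0.27, adjusted p = 0.00045). Among 27 cytokine and inflammation genes 12 rose and 2 fell. Members that rose numbered 5 without control replicate 1, 4 without control replicate 3 and 7 by voom. With total-count scaling 16 rose and 0 fell. Il15, a cytokine that sustains natural killer cells, had 7.77, 7.7, 4.15 and 6.77 CPM in the HFCD libraries, against 2.03, 2.13 and 2.72 CPM in the control libraries (log2 fold change 1.51 with an SE of 0.26, adjusted p = 0.00221), and Il1rn, the antagonist of interleukin 1, had 16.7, 22.8, 45.1 and 48.2 CPM in the HFCD libraries, against 0.387, 1.07 and 4.32 CPM in the control libraries (log2 fold change 3.98 with an SE of 1.12, adjusted p = 0.0186). Il1rn did not pass without control replicates 1 and 3 (log2 fold change 3.61 and 3.65, adjusted p = 0.0739 and 0.0708, in that order). Il1rn had a log2 fold change of 5.34 without control replicate 5 (adjusted p = 0.0181). Il1b, interleukin 1 beta, had 0.348, 0.389, 1.35 and 0.623 CPM in the HFCD libraries, against 0.194, 0.0445 and 0.32 CPM in the control libraries and did not pass (log2 fold change 1.81, adjusted p = 0.0906).

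T and natural killer cell genes rose more often than they fell, in a count that changed with the libraries and the test. Of 33 such genes 8 rose and 1 fell (24.2% and 3.03%, against 15.7% and 14.2% of all genes tested). Their summed level was 94.8 to 139 CPM in HFCD and 87.9 to 103 CPM in control, with overlap. Members that rose numbered 5 without HFCD replicate 1, 2 without HFCD replicate 2 or control replicate 3, 3 without control replicate 5 and 2 by voom. With total-count scaling 18 rose and 1 fell. Cd247, the zeta chain of the T cell receptor, was the stable rise (log2 fold change 1.25, adjusted p = 0.00455), and Trac, the constant part of the alpha chain, fell (log2 fold change -1.26, adjusted p = 0.0105). Trac did not pass without control replicate 1 (log2 fold change -1.06, adjusted p = 0.0546). Of 25 B and plasma cell genes 2 rose and 2 fell, each 8% of the list and below the shares of all genes tested, with a median of -1.12 and a summed level of 1242 to 3004 CPM in HFCD and 1385 to 4983 CPM in control. Cd79a, a part of the B cell receptor, had 0.869, 0.917, 1.17 and 3.16 CPM in the HFCD libraries, against 2.42, 3.96 and 10.3 CPM in the control libraries (log2 fold change -1.91 with an SE of 0.66, adjusted p = 0.0444). Cd79a did not pass without HFCD replicates 1, 2 and 3 or control replicates 3 and 5 (log2 fold change -1.71, -1.72, -1.8, -2.11 and -1.1, adjusted p = 0.103, 0.109, 0.0927, 0.0595 and 0.238, in that order). Cd79a had a log2 fold change of -2.52 without HFCD replicate 4 (adjusted p = 0.0207). Cxcl13, which draws B cells into follicles, had 0.67, 0.862, 2.23 and 1.79 CPM in the HFCD libraries, against 4.94, 9.78 and 39 CPM in the control libraries, with the same control library the highest by far (log2 fold change -3.72 with an SE of 0.64, adjusted p = 0.0022). Cxcl13 had a log2 fold change of -2.43 without control replicate 5 (adjusted p = 0.00457).

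Most genes of cell division rose. Of 41 genes of cell division and DNA replication 36 rose and 0 fell, 25 of the rises were stable and the median log2 fold change was 1.95. Macrophage markers moved with these genes (summed level 3686 to 7841 CPM in HFCD and 728 to 2707 CPM in control), and their part in the rises was not tested. Top2a, a topoisomerase of dividing cells, had 29.1, 39.4, 27.6 and 40.8 CPM in the HFCD libraries, against 4.65, 7.2 and 8.63 CPM in the control libraries (log2 fold change 2.3 with an SE of 0.42, adjusted p = 0.00288). Cdk1, the kinase that starts mitosis, had 10.9, 16.4, 8.58 and 13.7 CPM in the HFCD libraries, against 1.84, 2.53 and 1.12 CPM in the control libraries (log2 fold change 2.76 with an SE of 0.54, adjusted p = 0.0039), and its partner Ccnb2, a cyclin B, had 5.31, 8.62, 7.3 and 10.2 CPM in the HFCD libraries, against 1.36, 1.16 and 1.04 CPM in the control libraries (log2 fold change 2.75 with an SE of 0.46, adjusted p = 0.00195). Tk1, the thymidine kinase of DNA synthesis, had 3.95, 7.64, 5.25 and 6.36 CPM in the HFCD libraries, against 0.0968, 0.0889 and 0.919 CPM in the control libraries (log2 fold change 3.8 with an SE of 0.85, adjusted p = 0.00681). Without control replicate 5, Tk1 had 3 reads in the control group and still passed, and no fold change is given (adjusted p = 0.00345). The diets did not overlap in any of the 4 genes. Of 17 genes of cell cycle inhibitors and senescence 3 rose and 2 fell (17.6% and 11.8%, against 15.7% and 14.2% of all genes tested). Cdkn1a, which encodes p21, did not pass (log2 fold change 0.33, adjusted p = 0.258).

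The promoters of Cdk1 and Ccnb2 are shown because both hold the paired elements known from genes of late cell cycle, CCAAT boxes and the cell cycle homology region, here searched as TTTGAA. Capitals mark the CCAAT box, also where it reads ATTGG on the printed strand, and further the TTTGAA element, also where it reads TTCAAA there. Cdk1 lies at chr10:69352863-69353162, minus strand and Ccnb2 at chr9:70421505-70421804, minus strand, and each window holds 3 CCAAT and 2 TTTGAA matches.
Cdk1: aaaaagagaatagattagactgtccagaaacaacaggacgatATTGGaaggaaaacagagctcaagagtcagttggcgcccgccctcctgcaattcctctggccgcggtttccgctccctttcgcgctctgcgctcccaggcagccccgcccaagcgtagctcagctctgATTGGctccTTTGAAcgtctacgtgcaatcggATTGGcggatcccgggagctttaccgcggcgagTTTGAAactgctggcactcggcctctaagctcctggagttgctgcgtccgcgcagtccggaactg
Ccnb2: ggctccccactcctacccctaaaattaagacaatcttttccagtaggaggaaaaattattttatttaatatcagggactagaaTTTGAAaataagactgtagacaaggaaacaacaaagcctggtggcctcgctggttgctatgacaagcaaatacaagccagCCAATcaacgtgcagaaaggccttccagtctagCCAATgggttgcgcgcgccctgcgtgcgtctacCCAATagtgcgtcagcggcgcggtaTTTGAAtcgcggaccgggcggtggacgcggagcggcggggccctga
Of the 34 promoters matched for the list, 26 held CCAAT and 16 held TTTGAA, which is 76.5% and 47.1%. Over the promoters of the genes tested the shares were 38.4% and 12.2%.

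Collagens and other genes of the matrix around the cells rose more often than they fell. Of 33 collagen chains 16 rose and 0 fell (10 stable; median 0.81). Rises counted 10 without control replicate 1. Col4a1, of basement membranes, had 2479.6, 2712, 2157 and 2209 CPM in the HFCD libraries, against 863, 1110.4 and 1314 CPM in the control libraries (log2 fold change 1.12 with an SE of 0.21, adjusted p = 0.00301). Col16a1, a collagen associated with fibrils, had 63.6, 77.1, 44.5 and 33.4 CPM in the HFCD libraries, against 7.65, 7.38 and 19.6 CPM in the control libraries (log2 fold change 2.23 with an SE of 0.42, adjusted p = 0.00325). Col16a1 had a log2 fold change of 2.87 without control replicate 5 (adjusted p = 0.00125). Col1a1, the main fibrillar chain, rose as well (log2 fold change 1.1, adjusted p = 0.0196). Col1a1 did not pass without HFCD replicate 4 or control replicates 1 and 3 (log2 fold change 0.82, 0.92 and 1.08, adjusted p = 0.0504, 0.0881 and 0.0608, in that order). Of 51 matrix and remodelling genes 15 rose and 1 fell. The rises were 6 without control replicate 1 and 8 without control replicate 3. With total-count scaling 23 rose and 1 fell. Mmp3, a protease, had 34.9, 40.7, 41 and 56.6 CPM in the HFCD libraries, against 5.13, 10.5 and 14.9 CPM in the control libraries (log2 fold change 2.06 with an SE of 0.43, adjusted p = 0.00529), and Ccn5, a secreted matrix-associated protein, had 55.1, 43.6, 26.8 and 38.1 CPM in the HFCD libraries, against 6.29, 3.25 and 8.31 CPM in the control libraries (log2 fold change 2.78 with an SE of 0.47, adjusted p = 0.00214). Of the progenitor and fibroblast markers, 3 of 26 rose and 2 fell (11.5% and 7.69%, against 15.7% and 14.2% of all genes tested). This count was 6 without control replicate 5 and 5 by voom with quality weights. With total-count scaling 5 rose and 0 fell and the median changed sign, to 0.3. Pdgfra, which marks adipose progenitors, had 101, 113, 153 and 151 CPM in the HFCD libraries, against 49.4, 70.7 and 170 CPM in the control libraries. It did not pass (log2 fold change 0.42, adjusted p = 0.378), but it did without control replicate 5, with a log2 fold change of 1.1. Pdgfrb, the receptor of mural cells and fibroblasts, had 134, 122, 146 and 124 CPM in the HFCD libraries, against 46.6, 53.4 and 63.6 CPM in the control libraries (log2 fold change 1.27 with an SE of 0.15, adjusted p = 0.000484).

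Endothelial genes rose more often than they fell. Of 24 endothelial genes 7 rose and 0 fell (29.2% and 0%, against 15.7% and 14.2% of all genes tested). Their summed level was 2540 to 3008 CPM in HFCD and 1758 to 2076 CPM in control, without overlap. The rises were 3 without HFCD replicate 2 or control replicates 1, 3 and 5. With total-count scaling 18 rose and 0 fell. Dll4, the Notch ligand of tip and arterial endothelium, had 34.5, 43.9, 27.3 and 23.6 CPM in the HFCD libraries, against 11.7, 15 and 9.07 CPM in the control libraries (log2 fold change 1.44 with an SE of 0.26, adjusted p = 0.00268), and Pecam1, a general endothelial marker, did not pass (log2 fold change 0.56, adjusted p = 0.0806). Vegfc, the growth factor of lymphatic vessels, had 10.3, 13.2, 8.4 and 10.5 CPM in the HFCD libraries, against 2.71, 1.78 and 1.48 CPM in the control libraries (log2 fold change 2.45 with an SE of 0.28, adjusted p = 0.000402), while Vegfa did not pass (log2 fold change -0.62, adjusted p = 0.175) and Fgf2 had 48.2, 24.9, 45.4 and 41.3 CPM in the HFCD libraries, against 116, 97.2 and 188 CPM in the control libraries (log2 fold change -1.74 with an SE of 0.45, adjusted p = 0.0136). Among 19 genes of the mesothelium, 10 fell and 0 rose, with a median of -1.99, and their summed level was 412 to 679.8 CPM in HFCD and 654 to 1377 CPM in control. Falls numbered 4 without HFCD replicates 1 and 4, 1 without HFCD replicate 2, 3 without control replicate 1 and 2 without control replicate 5. With total-count scaling 1 rose and 3 fell.

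Some genes better known from neurons rose. The list used here was drawn up with such rises already known, so its counts are a description only: 7 of 14 tested genes rose, all stable, and 0 fell. A further 14 listed genes were not in the count table. Members near 0 CPM in control could pass the low-count filter only through HFCD or HFCD+FMD libraries. For such members a fall could not have been seen. Syp, synaptophysin of synaptic vesicles, had 124, 99.8, 116 and 101 CPM in the HFCD libraries, against 33.7, 41.5 and 48.6 CPM in the control libraries (log2 fold change 1.41 with an SE of 0.15, adjusted p = 0.000402). Ntm, neurotrimin, a cell adhesion molecule, had 17.6, 17.4, 11.5 and 18.9 CPM in the HFCD libraries, against 1.07, 1.24 and 1.48 CPM in the control libraries (log2 fold change 3.67 with an SE of 0.42, adjusted p = 0.000402). Slc18a1, a vesicular monoamine transporter, rose too (log2 fold change 2.97, adjusted p = 0.00396), in a span shared with Atp6v1b2 on the other strand, a proton pump gene that rose as well (log2 fold change 1.29, adjusted p = 0.00954), and reads of both strands cannot be told apart here. Cacng5, a calcium channel subunit family member, had 2.04, 3.17, 1.31 and 2.08 CPM in the HFCD libraries, against 0, 0 and 0 CPM in the control libraries, which is at least 41.4-fold higher against a floor of 3 reads over the control group. Gsg1l, an auxiliary subunit of AMPA receptors, had 0.869, 3.45, 1.06 and 2.04 CPM in the HFCD libraries, against 0, 0.0445 and 0 CPM in the control libraries (238 reads over the HFCD group and 1 over the control group, 107-fold higher with a 95% counting interval of 19 to 4248, adjusted p = 0.0022). Chrm4, a muscarinic receptor, had 0.943, 2.31, 1.63 and 1.45 CPM in the HFCD libraries, against 0, 0.0445 and 0.0799 CPM in the control libraries (202 reads over the HFCD group and 3 over the control group, 30.3-fold higher with a 95% counting interval of 10.2 to 148, adjusted p = 0.00303). These intervals cover counting error only. Without control replicate 3, Gsg1l had 0 reads in the control group and still passed, and no fold change is given (adjusted p = 0.0115). Without control replicate 5, Gsg1l had 1 read in the control group and still passed, and no fold change is given (adjusted p = 0.00705). Without control replicate 5, Chrm4 had 1 read in the control group and still passed, and no fold change is given (adjusted p = 0.007). Atp1a4, a sodium pump subunit known from sperm, had the smallest p-value of the stable rises, with 6.01, 8.76, 6.06 and 6.19 CPM in the HFCD libraries, against 0.0968, 0.267 and 0.24 CPM in the control libraries (log2 fold change 4.93 with an SE of 0.39, adjusted p = 0.000127). Cux2, a homeobox factor, had 20.0, 18.2, 19.9 and 16.7 CPM in the HFCD libraries, against 0.484, 1.64 and 1.12 CPM in the control libraries (log2 fold change 4.03 with an SE of 0.42, adjusted p = 0.00038), and Myh15, a myosin heavy chain, had 10.8, 9.4, 10.2 and 22.7 CPM in the HFCD libraries, against 0, 0.0445 and 0.16 CPM in the control libraries (log2 fold change 7.24 with an SE of 1.32, adjusted p = 0.00287). Without control replicate 5, Myh15 had 1 read in the control group and still passed, and no fold change is given (adjusted p = 0.00682).

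The largest falls were of a mixed kind. Atp4b, a subunit of the gastric proton pump, had no read in the HFCD libraries and 1.55, 3.25 and 2.92 CPM in the control libraries, which is at least 110.0-fold lower against a floor of 3 reads over the HFCD group. Slc2a5, the fructose transporter, had 0.0496, 0.0834, 0.177 and 0.166 CPM in the HFCD libraries, against 11.5, 17.3 and 3.88 CPM in the control libraries (log2 fold change -6.54 with an SE of 1.21, adjusted p = 0.00303). Acsm3, a medium-chain acyl-CoA synthetase, had 2.11, 2.39, 3.83 and 1.5 CPM in the HFCD libraries, against 231, 92.1 and 61.1 CPM in the control libraries (log2 fold change -5.7 with an SE of 0.94, adjusted p = 0.00188). Acsm3 had a log2 fold change of -4.95 without control replicate 1 (adjusted p = 0.00971). Cyp2f2, a cytochrome P450, had 0.298, 0.195, 0.922 and 1.33 CPM in the HFCD libraries, against 47.5, 23.5 and 39.3 CPM in the control libraries (log2 fold change -5.8 with an SE of 0.93, adjusted p = 0.00166). Slc15a5, a predicted peptide transporter, had 0.943, 0.639, 0.745 and 0.416 CPM in the HFCD libraries, against 25.2, 33.5 and 31.3 CPM in the control libraries (log2 fold change -5.42 with an SE of 1.03, adjusted p = 0.00346). In each of these genes every control library lay above every HFCD library. Adgrg2, an adhesion G protein-coupled receptor, had 5.16, 5.56, 8.01 and 4.86 CPM in the HFCD libraries, against 71.3, 49.3 and 56.5 CPM in the control libraries (log2 fold change -3.32 with an SE of 0.36, adjusted p = 0.000402), and Sorcs2, a sorting receptor, had 0.819, 0.806, 0.922 and 0.914 CPM in the HFCD libraries, against 19.9, 16.1 and 7.35 CPM in the control libraries (log2 fold change -4.06 with an SE of 0.4, adjusted p = 0.00025). Alox15, a lipoxygenase, and Mrgprg, an orphan receptor, were highest in control replicate 5, with 0.174, 0.917, 0.213 and 0.291 CPM in the HFCD libraries, against 1.55, 2.45 and 22.7 CPM in the control libraries for Alox15 and 0.0496, 0.0834, 0.461 and 0 CPM in the HFCD libraries, against 0.678, 8.14 and 72.2 CPM in the control libraries for Mrgprg. Alox15 had a log2 fold change of -5.32 without HFCD replicate 2 (adjusted p = 0.00945). Alox15 had a log2 fold change of -2.31 without control replicate 5 (adjusted p = 0.0379). Mrgprg had a log2 fold change of -9.0 without HFCD replicate 3 (adjusted p = 0.0111). Mrgprg had a log2 fold change of -4.91 without control replicate 5 (adjusted p = 0.023). The 4 major urinary protein genes tested all fell, and their values are uncertain because their reads are shared within the family. H2-Q10, a class I gene with close copies, is uncertain in the same way (log2 fold change -4.02, adjusted p = 0.00146).

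Enzymes of detoxification and protection against oxidants fell more often than they rose with TMM scaling, and the antioxidant genes did not with total-count scaling. Of 26 genes of the first kind 9 fell and 2 rose. With total-count scaling 6 rose and 8 fell and the median changed sign, to 0.24. Cyp2e1, which oxidises ethanol, acetone and fatty acids, had 307, 434, 764 and 954 CPM in the HFCD libraries, against 7401, 4369 and 3805 CPM in the control libraries. Control replicate 1 was the highest library and HFCD replicates 3 and 4 were above replicates 1 and 2 (log2 fold change -3.08 with an SE of 0.44, adjusted p = 0.00099). Of 30 antioxidant genes 7 fell and 3 rose. With total-count scaling 7 rose and 6 fell and the median changed sign, to 0.24. Cat, the catalase, had 1025, 1095, 1185 and 1326 CPM in the HFCD libraries, against 3536, 2659.8 and 2163 CPM in the control libraries (log2 fold change -1.27 with an SE of 0.24, adjusted p = 0.00322), and Sod1, the cytosolic superoxide dismutase, had 164, 158, 174 and 180.0 CPM in the HFCD libraries, against 488, 357 and 285 CPM in the control libraries (log2 fold change -1.16 with an SE of 0.17, adjusted p = 0.00111). Gsta4, which conjugates lipid peroxidation products to glutathione, had 9.68, 7.64, 9.96 and 5.98 CPM in the HFCD libraries, against 64.6, 49.6 and 41.7 CPM in the control libraries (log2 fold change -2.64 with an SE of 0.53, adjusted p = 0.00461). The stable rise was Txnrd1, the cytosolic thioredoxin reductase (log2 fold change 0.68, adjusted p = 0.00693). Of 15 heat shock genes 8 fell with TMM scaling and 0 rose, among the falls Chordc1, a partner of HSP90 (log2 fold change -0.77, adjusted p = 0.0017). With total-count scaling 3 rose and 0 fell. Car5b, the mitochondrial carbonic anhydrase that supplies bicarbonate to pyruvate carboxylase, had 333, 302, 272 and 246 CPM in the HFCD libraries, against 1245, 1143 and 921 CPM in the control libraries (log2 fold change -1.94 with an SE of 0.21, adjusted p = 0.000402). Cp, the ferroxidase ceruloplasmin, had 56.3, 68.2, 80.9 and 108 CPM in the HFCD libraries, against 508, 329.6 and 276 CPM in the control libraries (log2 fold change -2.24 with an SE of 0.25, adjusted p = 0.000402), and Hp, the haemoglobin carrier haptoglobin, had 1989.9, 2679.8, 2209 and 1657 CPM in the HFCD libraries, against 341, 325 and 604 CPM in the control libraries (log2 fold change 2.33 with an SE of 0.31, adjusted p = 0.000696). In prostaglandin and leukotriene genes 7 of 26 rose and 6 fell. Members that rose numbered 4 without control replicates 1 and 3. With total-count scaling 11 rose and 2 fell. Hpgds, which makes prostaglandin D2 in blood-derived cells, had 41.9, 51.1, 52.5 and 93.3 CPM in the HFCD libraries, against 2.71, 3.96 and 5.67 CPM in the control libraries (log2 fold change 3.82 with an SE of 0.7, adjusted p = 0.00292), and the phospholipase Pla2g5 had 10.5, 30.8, 16.9 and 14.6 CPM in the HFCD libraries, against 0.194, 1.2 and 0.719 CPM in the control libraries (log2 fold change 4.58 with an SE of 0.58, adjusted p = 0.000564). Of 19 clock genes 4 fell and 0 rose. Members that fell numbered 2 without control replicates 1 and 3. With total-count scaling 3 rose and 2 fell and the median changed sign, to 0.04. Of 30 genes of the unfolded protein and integrated stress response 4 fell and 1 rose (13.3% and 3.33%, against 14.2% and 15.7% of all genes tested). Falls counted 2 without HFCD replicate 1 and 1 without control replicate 1. With total-count scaling 15 rose and 1 fell.

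**Figure D5:**
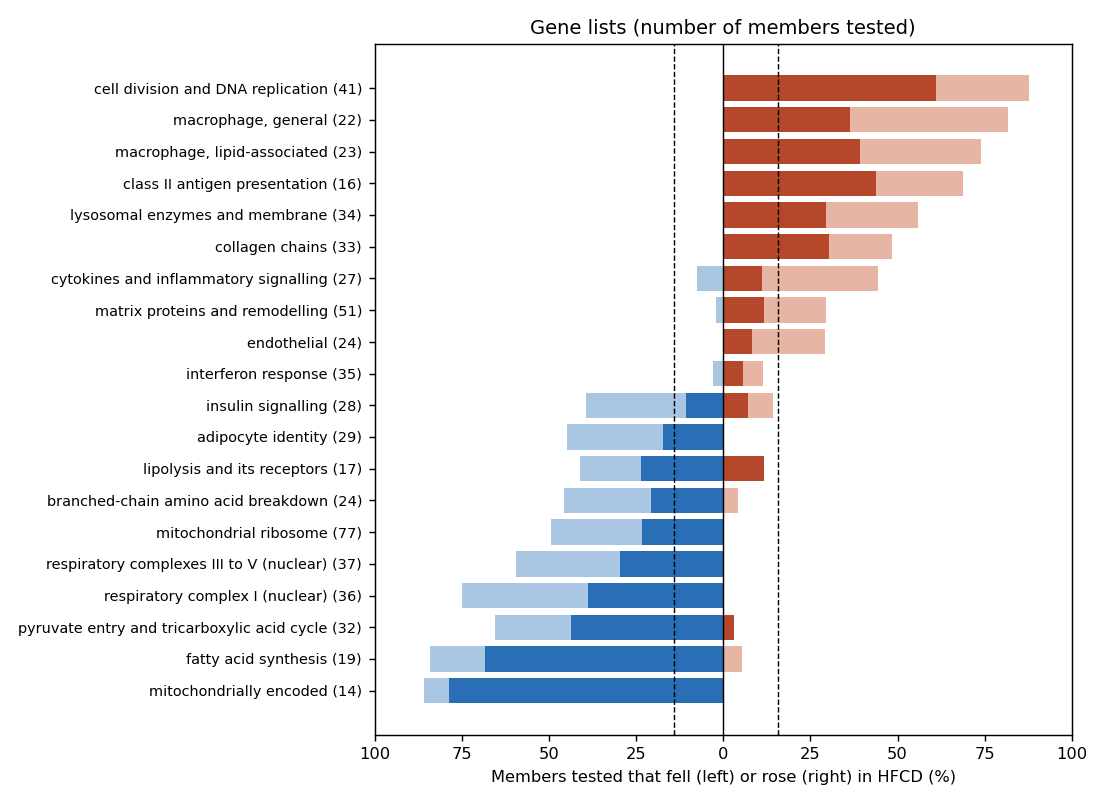
Members of 20 gene lists that rose (right of 0) or fell (left of 0) under HFCD, in percent of the members tested, with the darker part of each bar the members that also passed in all 7 fits without 1 library. Dashed lines mark the shares over all genes tested, 15.7% higher and 14.2% lower.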

How the data were processed

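Total RNA of adipose tissue was depleted of ribosomal RNA and sequenced, per the labels' protocols. The authors deposited raw counts per gene for the adipose libraries, and log2 values of the same libraries, which served here as an alternative. Per the submitters' processing notes, STAR 2.5.3, R 3.5.3, edgeR and limma are named, with the mm10 build; the counting program, annotation and strand setting are not given in the sources used here. Without a known strand setting, reads of a gene and of its partner on the other strand cannot be told apart: 29 of the 146 genes named share their span with one, among them Mest with Copg2, Col4a1 with Col4a2, Fdft1 with Ctsb and Pltp with Ctsa, and Glb1 and Cd247 share theirs with a gene on the same strand.

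Of 15145 genes in the table, 15112 passed edgeR's filter on low counts. Counts of all 13 adipose libraries were fitted with edgeR 4.0.16 (TMM, robust quasi-likelihood F-test, diet as the only term) in R 4.3.3, and the contrast was HFCD minus control, with Benjamini-Hochberg adjustment over all genes tested and a threshold of 0.05. The SE is the size of the log2 fold change divided by the square root of F. CPM are counts scaled to library size with TMM factors; a floor of 3 reads over a group replaced a group with no read, and for 1 to 3 reads the ratio is given with an exact binomial interval. The script was tested on simulated data. Alternatives were 2 other scalings, a table without mitochondrially encoded genes, DESeq2 1.42.0, limma 3.58.1 voom with and without library weights, 2 other filters, the 7 libraries alone, a fit with age, limma on the authors' deposited log2 values, and each library left out. Genes were named if they were members of a gene list, or, among stable genes without overlap and with at least 1 CPM in a diet, if they were among the 20 largest rises or falls or the 10 smallest p in a direction. The members and lists were chosen with earlier results of these data known. The labels do not tie libraries to individual mice, so p-values measure the spread between libraries. This spread was estimated with the HFCD+FMD libraries, so differences within that group enter each SE and p-value. Fasn, for 1, ranged from 769 to 6974 CPM in HFCD+FMD. Total counts per library set the precision, and the tests cover counting error and the spread between libraries only. Heart files were not used. Some genes counted in the lists are not reported here by name.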

Additional observations from a re-analysis of the deposited data

Results flagged for a closer look

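In the 4 HFCD libraries, 6 of 146 named genes had 1 library far from the others by Dixon's test, a share that chance gives to about 1 in 20 genes. Acly had 209 CPM in HFCD replicate 4 and 275 to 284 CPM in the other HFCD libraries. Alox15 had 0.917 CPM in HFCD replicate 2 and 0.174 to 0.291 CPM in the other HFCD libraries. Atp1a4 had 8.76 CPM in HFCD replicate 2 and 6.01 to 6.19 CPM in the other HFCD libraries. Cd79a had 3.16 CPM in HFCD replicate 4 and 0.869 to 1.17 CPM in the other HFCD libraries. Myh15 had 22.7 CPM in HFCD replicate 4 and 9.4 to 10.8 CPM in the other HFCD libraries. Ucp1 had 8.95 CPM in HFCD replicate 2 and 0.0709 to 0.273 CPM in the other HFCD libraries.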

How the results depend on the processing

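The number of genes called was 4564 with RLE scaling, 4563 without mitochondrially encoded genes, 5323 by DESeq2, 3777 by voom, 5713 by voom with library weights, 4526 with no filter, 4389 with the stricter filter, 4096 with the 7 libraries alone, 4439 with age as a covariate and 4651 on the deposited log2 values, all within 1.5 times of 4532. With total-count scaling it was 6877, of which 6205 were higher in HFCD and 672 lower, with the median log2 fold change of all genes at 0.444. Without 1 library it was 2348 to 4614, with 1314 to 2439 higher, 1034 to 2175 lower and 1330 to 2528 changed by more than 2-fold. The cause of the dependence on control replicates 1 and 3 was not tested. Of 137 named genes that passed, 10 lost the call without control replicate 3, 12 without control replicate 1 and 12 with total-count scaling, and none changed direction under any of the 18 alternatives. The log2 fold change of Ucp1, which did not pass, was 2.99 without control replicate 1 and -7.79 without HFCD replicate 2. No paired analysis was possible because the replicate numbers were given in accession order and no label ties an HFCD library to a control library.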
